A study of Rattus norvegicus with 12 samples.

Results

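The respiratory chain genes were read here as 101 of the 32545 genes in the deposited table, of which 13 are encoded by the mitochondrial genome and 88 by nuclear chromosomes. The rule that defines them uses position and name and no measured value, taking the protein-coding genes of the mitochondrial genome and the protein-coding genes whose symbols begin with the stems used for complex I (Nduf), complex III (Uqcr and Cyc1), complex IV (Cox4 to Cox8) and complex V, the ATP synthase (Atp5). The 88 nuclear genes comprise 43 of complex I, 8 of complex III, 19 of complex IV and 18 of complex V. Succinate dehydrogenase, complex II, is not in this choice and was counted separately.

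Oxidative phosphorylation passes electrons from NADH through complexes I, III and IV to oxygen, and the proton gradient this builds drives ATP synthesis by complex V. Its enzymes are built from 2 genomes, because the mitochondrial DNA keeps the genes of a few membrane subunits while the remaining subunits, and all assembly factors, are made from nuclear genes and imported. Mitochondrial genes are copied as long transcripts that are cut into single messengers, whereas each nuclear gene has its own promoter. The heart relies on this pathway more than most tissues, and its use increases in cardiomyocytes after birth.

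Free wall myocardium was taken from Sprague-Dawley (SD) rats on postnatal day 7, after surgery on postnatal day 1. Rats with volume overload (VO) had received a fistula between the abdominal aorta and the inferior vena cava, and control rats had a sham operation. The right ventricle (RV) and left ventricle (LV) of each treatment were sequenced apart, which gave the groups sham LV and sham RV and the groups VO LV and VO RV, 4 in all, with 3 libraries each. All rats were therefore operated neonates of 1 strain, the sex of the animals is not given in the sources used here, and whether the libraries came from separate animals is not stated, so that p-values measure only the spread between these libraries.

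Reads on genes numbered 14121713 to 16871371 in a library. The unit is FPKM, the number of fragments on a gene scaled to the length of the gene and the depth of the library, which allows levels of genes of different length to be set side by side. Of the 12 libraries, 3 stood apart, namely sham LV 2 (the second sham LV library) in its mitochondrial messengers, and VO RV 2 and sham RV 1 in their cell type markers. Many counts and medians that rest on them are also given without them. In VO RV 2 the summed level of 9 cardiomyocyte markers was 18742 FPKM against 22871 to 29878 in the other libraries, that of 7 fibroblast markers was 4854 against 2023 to 3583, and that of 5 atrial markers was 4559 against 212 to 1729. Sham RV 1 had the next lowest cardiomyocyte sum (22871) and the next highest fibroblast sum (3583), and the atrial marker Sln was at 97.7 FPKM in it and 388 FPKM in VO RV 2, against at most 0.68 FPKM in the other 10 libraries. Cardiomyocyte markers were abundant in every library. In bulk tissue, fewer cells of a type and less RNA per cell cannot be told apart.

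All 13 mitochondrial-encoded genes and 84 of the 88 nuclear-encoded genes reached the mean FPKM of 0.5 needed for the test. Of the other 4, Cox6c1, Cox8c and Ndufb4l1 were listed at 0 in every library and Cox7b2 had a mean of 0.061 FPKM. The nuclear genes lie on 20 chromosomes, with 12 on chromosome 7 and 11 on chromosome 1. Some share a symbol with a second copy (Cox6b1, Ndufa13 and Atp5f1), and how reads were split between such copies is not given in the sources used here. A few of the names belong to assembly factors (7 Ndufaf genes) or to relatives of subunits rather than to subunits.

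The mitochondrial genes far exceeded the nuclear ones in level. Per length, the mitochondrial-encoded genes had a median of 14309 FPKM (mean over 12 libraries, range 424 to 34918) and the 84 nuclear ones a median of 272 FPKM (range 1.67 to 2999.9). The highest levels were those of Mt-co1 (34918 FPKM), Mt-cox3 (33127 FPKM) and Mt-co2 (29302 FPKM), the 3 mitochondrial-encoded subunits that form the catalytic core of complex IV, and of Mt-atp6 (31388 FPKM), the proton channel subunit of complex V. The lowest were Mt-atp8 (424 FPKM), another subunit of complex V, and Mt-nd4 (1053 FPKM), a proton-pumping subunit of complex I. Mt-nd4l and Mt-nd4 overlap at positions 10160 to 10166 of the mitochondrial genome, Mt-atp8 and Mt-atp6 at 7919 to 7961, and Mt-nd5 and Mt-nd6, which lie on opposite strands, at 13543 to 13565. Reads in these stretches may have been assigned to either gene or left out, and the strand setting is not given in the sources used here. Levels of these genes relative to each other are therefore uncertain, whereas the same gene can be compared between libraries.

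Among the nuclear genes the highest level was that of Atp5b, the catalytic beta subunit of ATP synthase, with 2999.9 FPKM, followed by Cox4i1 (1780 FPKM), the general isoform of subunit 4 of complex IV, and Cox6a2 (1524 FPKM), its heart and muscle isoform of subunit 6A. The leading genes of complex III were Uqcrh and Cyc1, and those with the complex I stem Ndufb9 and Ndufa4, of which Ndufa4 is now known as a subunit of complex IV. The median level was 232 FPKM for complex I, 324 FPKM for complex III, 769 FPKM for complex IV and 656 FPKM for complex V over the tested nuclear genes.

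The mitochondrial-encoded genes took a large and variable part of each library. In sham LV they held 25.4, 13.5 and 23.1% of the reads on genes (replicates 1 to 3), while sham RV had 16.8, 21.0 and 19.7%, VO LV had 18.9, 19.98 and 16.9%, and VO RV had 19.9, 15.5 and 23.2%. Both the highest and the lowest value were thus in sham LV, and the 4 groups overlapped. The nuclear-encoded genes held 2.79 to 3.88% of the reads.

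**Figure D1:**
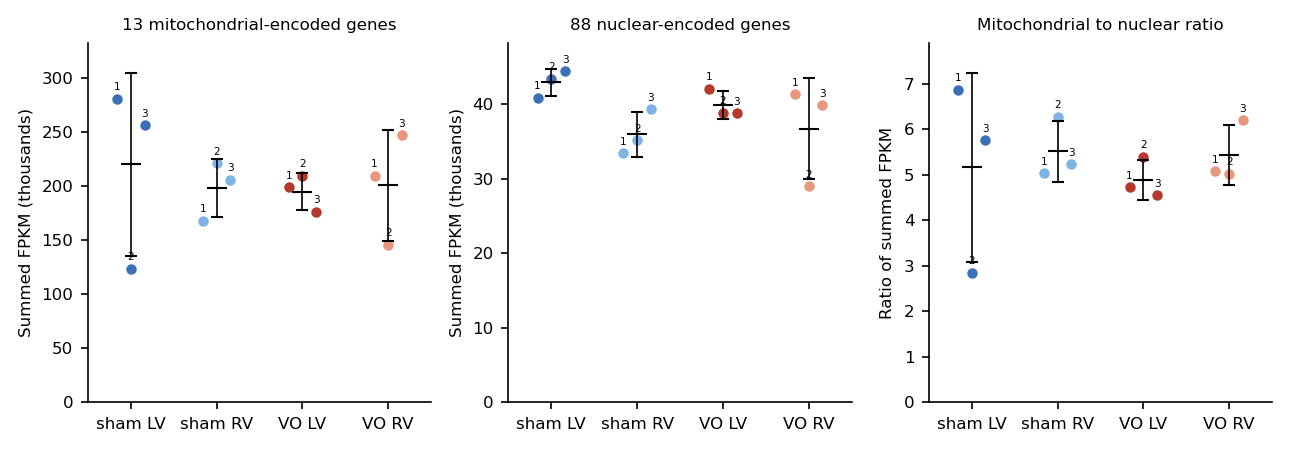
Summed FPKM, in units of 1000, of the 13 mitochondrial-encoded genes, of the 88 nuclear-encoded genes and the ratio of the 2 sums, for each of 12 libraries (points, numbered by replicate) in 4 groups, with mean and SD (bars, n = 3). In sham LV 2 the ratio was 2.85, below the 4.55 to 6.86 of all other libraries, while its nuclear sum lay between those of the other sham LV libraries.

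Summed over the 13 genes, the mitochondrial level was 220025 ± 84478 FPKM for sham LV, 198073 ± 27159 for sham RV, 194636 ± 16963 for VO LV and 200545 ± 51157 for VO RV (SD, n = 3 each). The sum over the 88 nuclear genes was 42901 ± 1833 FPKM for sham LV, 35961 ± 3028 for sham RV, 39873 ± 1893 for VO LV and 36712 ± 6732 for VO RV (SD, n = 3 each). The nuclear sums of sham LV (40868 to 44428 FPKM) lay above all those of sham RV (33388 to 39298 FPKM), and the other groups overlapped with both. These sums are given as a description, without a test. The ratio of the mitochondrial to the nuclear sum was 5.16 ± 2.08 for sham LV, 5.51 ± 0.665 for sham RV, 4.89 ± 0.447 for VO LV and 5.43 ± 0.661 for VO RV (SD, n = 3 each), and the ranges of the 4 groups overlapped.

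In none of the 5 comparisons was a mitochondrial-encoded gene called as a DEG, that is with a fold change over 1.3 and an adjusted p under 0.05 in a limma model of all 12 libraries with Benjamini-Hochberg adjustment. None of the 13 had an unadjusted p under 0.05 in any comparison either, none was called in voom on recovered reads or any other alternative run, and for each of them the groups overlapped in all 4 comparisons between groups. Fitted log2 fold changes were between −0.20 and 0.36 for sham LV against sham RV, between −0.35 and 0.13 for VO LV against sham LV, between −0.26 and 0.28 for VO RV against sham RV, and between −0.13 and 0.18 for VO LV against VO RV. Their standard errors were 0.21 to 0.41, so that differences of the size called elsewhere among the members could not be detected for most of these genes. The median SD of the log2 level within groups was 0.40 for the mitochondrial-encoded genes, 0.22 for the nuclear-encoded genes, 0.19 for all genes tested and 0.17 for genes of at least 100 FPKM. Without sham LV 2 these medians were 0.25, 0.19, 0.18 and 0.15 in the same order.

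In sham LV 2 all 13 mitochondrial-encoded genes were lower than the mean of the other 2 sham LV libraries. The loss was uneven. Mt-nd2, a complex I subunit, was at 5917 FPKM in sham LV 2 against 20650 and 18538 FPKM in sham LV 1 and 3, a 3.31-fold lower level. Mt-cytb, the only complex III subunit of the mitochondrial genome, was at 7006 FPKM against 24274 and 20423 FPKM (3.18-fold lower), and Mt-cox3 at 15711 FPKM against 46896 and 42634 FPKM (2.85-fold lower). Mt-co1, Mt-nd5 and Mt-nd6 differed least. Mt-co1 was at 27551 FPKM against 45875 and 40760 FPKM (1.57-fold lower), Mt-nd5 1.45-fold lower and Mt-nd6, the one gene of the opposite strand, 1.42-fold lower. The mitochondrial rRNA genes, which are no members, were not lower in sham LV 2. The 12S rRNA was at 3395 FPKM in sham LV 2 against 3401 and 3029 FPKM, and the 16S rRNA at 3145 FPKM against 2705 and 2580 FPKM, its highest level in any library. Their summed level was 5609 to 6540 FPKM in the 3 sham LV libraries and 3055 to 4908 FPKM in the 9 others, without overlap (0.680 to 0.919% against 0.423 to 0.602% of the reads on genes), and the part of this in the differences of sham LV from other groups was not tested. The nuclear-encoded genes were not lower on balance in that library, with 38 of 84 below the mean of sham LV 1 and 3. What set this library apart was not tested.

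VO RV 2 was low in both genomes. All 13 mitochondrial-encoded and 82 of the 84 nuclear-encoded genes were below their mean over 12 libraries, with a median log2 deviation of −0.44 and −0.39, and its ratio of the sums was 5.02. Its cardiomyocyte marker sum was the lowest of all libraries, as given above, and the part of this in the low respiratory chain levels was not tested.

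**Figure D2:**
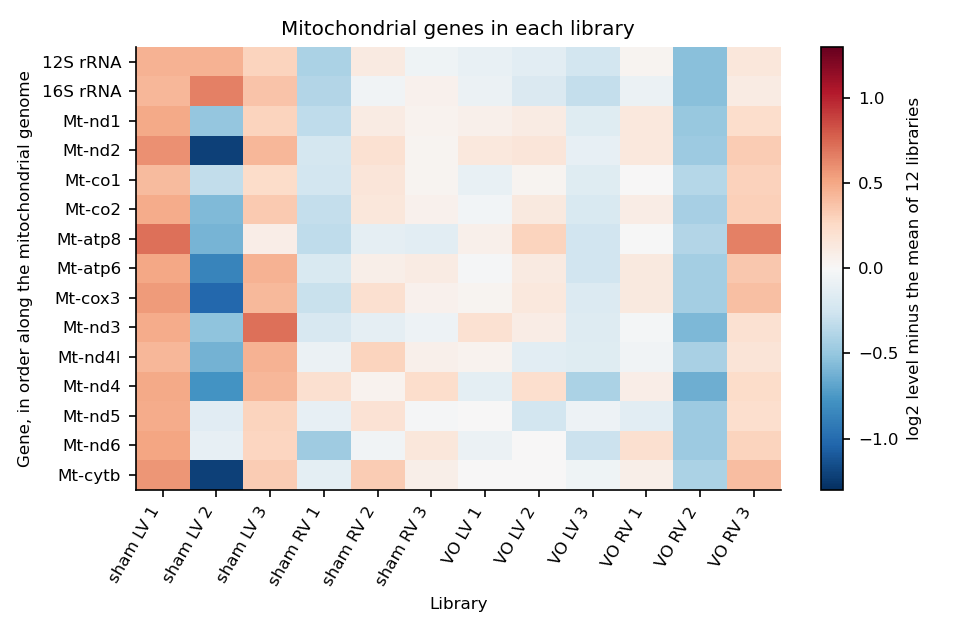
Log2 level (log2 of FPKM after scaling plus 0.5) of the 13 mitochondrial-encoded genes and the 2 mitochondrial rRNA genes (rows, in order along the mitochondrial genome) in each library (columns), as the difference from the mean of 12 libraries (colour). In sham LV 2 Mt-nd2, Mt-cytb and Mt-cox3 are the lowest and both rRNA genes are above their mean, whereas in VO RV 2 all rows are below it.

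Leaving out sham LV 2 changed the mitochondrial medians. The median log2 fold change of the 13 genes was 0.12 for sham LV against sham RV with all libraries and 0.45 without sham LV 2, and −0.11 for VO LV against sham LV with all libraries and −0.49 without it. Without sham LV 1 they were −0.08 and 0.09. The direction of the mitochondrial median therefore depended on single sham LV libraries, and the comparison of the sham LV with other groups is undecided for these genes. For VO RV against sham RV and VO LV against VO RV the medians were −0.003 and −0.02, and these turned on single VO RV libraries, with 0.23 and −0.23 without VO RV 2 and −0.17 and 0.16 without VO RV 3. Those of all genes tested were 0.01, −0.02, 0.003 and 0.005 in the 4 comparisons.

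The nuclear-encoded genes were higher on balance in sham LV than in sham RV. Of the 84 genes, 68 had a positive log2 fold change, with a median of 0.24 against 0.01 over all genes tested, and the median was 0.23 for complex I (35 of 42 positive), 0.15 for complex III (5 of 8), 0.34 for complex IV (15 of 16) and 0.26 for complex V (13 of 18). Markers of other cell types separated the same groups without overlap. The summed level of 5 red blood cell markers was 9672 to 13252 FPKM in sham LV and 4923 to 8210 FPKM in sham RV, that of 5 endothelial markers 363 to 391 FPKM and 267 to 289 FPKM, and that of 5 smooth muscle and pericyte markers 456 to 618 FPKM and 396 to 435 FPKM, and their part in the differences of the members was not tested. Only 2 of the nuclear members passed the test, Ndufa4l2 (higher in sham LV) and Ndufaf1 (lower), where 3.85% of all genes tested were called. With an unadjusted p under 0.05 and a fold change over 1.3, 18 of 84 nuclear genes were higher in sham LV, beside 8.19% of all genes, and 3 were lower, beside 9.63% of all genes. The 18 were Ndufa2, Ndufa4l2, Ndufa5, Ndufb3, Ndufb7, Ndufb9 and Ndufs5 by the complex I stem, Uqcrb of complex III, Cox4i1, Cox4i2, the Cox6b1 copy on chromosome 2, Cox6c, Cox7c and Cox8a of complex IV, and Atp5e, Atp5h, Atp5i and Atp5l of complex V. The 3 were Ndufaf1, Ndufs1 and Uqcrc2. Without sham LV 2, sham RV 1 and VO RV 2 together, 11 were higher and 3 lower, and without sham RV 1 alone 7 and 3. Without sham LV 1 alone, or without sham RV 3 alone, 25 were higher and 3 lower. The balance also moved with the scaling, to 8 higher and 6 lower with quantile normalization and to 6 higher and 4 lower with the trend of level with gene length removed. Scaling to reads outside the mitochondrial genome gave 20 and 3, and voom on recovered reads 18 and 3. The share of all genes by this rule is not given for these alternative fits.

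Among those of largest difference, Atp5i, a small membrane subunit of ATP synthase, was at 599, 849 and 717 FPKM in the sham LV libraries and 418, 392 and 513 FPKM in those of sham RV. The groups did not overlap, and the log2 fold change was 0.70 ± 0.19 (SE, adjusted p = 0.057, limma). Atp5h, a subunit of its peripheral stalk, was at 811, 1114 and 778 FPKM in the sham LV libraries and 502, 549 and 626 FPKM in those of sham RV, with a log2 fold change of 0.67 ± 0.17 (SE, adjusted p = 0.051, limma). Ndufb9, the complex I subunit of highest level among the nuclear genes, was at 754, 1242 and 809 FPKM against 546, 598 and 651 FPKM, with a log2 fold change of 0.61 ± 0.19 (SE, adjusted p = 0.083, limma). In all 3 genes the highest value was that of sham LV 2, the library that was low in mitochondrial messengers, and without it the log2 fold changes were 0.58, 0.51 and 0.39.

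This difference went along with gene length. The members are short, and the 51 nuclear genes under 1000 bases had a median log2 fold change of 0.31 (48 positive) whereas the 33 longer ones had 0.10 (20 positive). Protein-coding genes outside the list showed the same order, with 0.18 for 1444 genes under 1000 bases and −0.01 for 11296 longer ones. Across the 84 nuclear genes, Spearman's rho of the log2 fold change with length was −0.46, and across all 13910 genes tested it was −0.23 (a description across genes, which are not independent replicates). When the trend of each library's values with gene length was removed, the median of the nuclear genes was 0.11 (59 of 84 positive), against 0.007 for all genes. Over the 12 libraries, which share the values from which both measures were made, the nuclear score (the median log2 deviation of the 84 genes) went with the rho of level and length over all genes at Pearson's r = −0.84 and Spearman's rho = −0.88, and r was −0.86 without the 2 libraries farthest from the median. The part of length-related differences between libraries in the sham comparison was not tested.

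**Figure D3:**
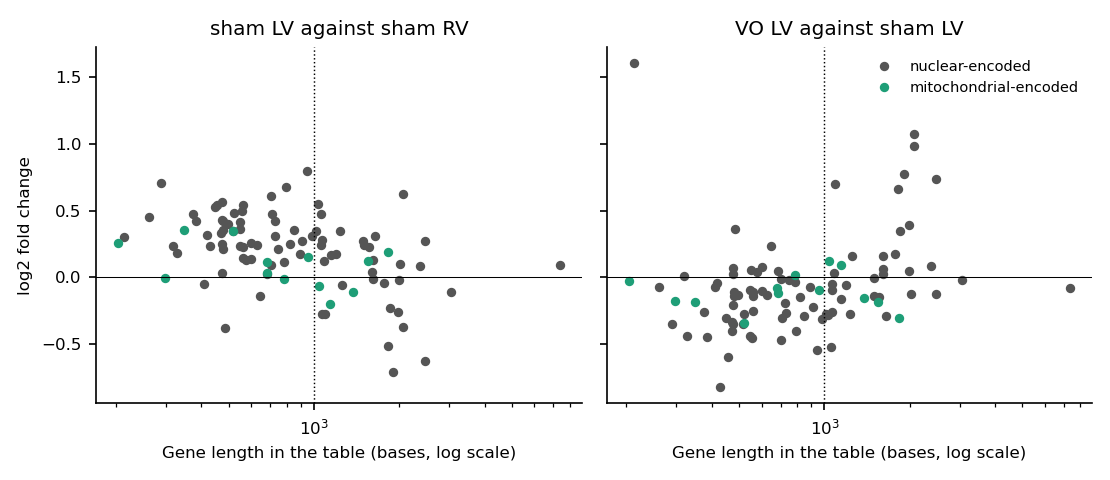
Log2 fold change of each tested member against its gene length in the table (bases, log scale), for sham LV against sham RV (left) and VO LV against sham LV (right), with the dotted line at 1000 bases. Nuclear-encoded genes under 1000 bases had medians of 0.31 (left) and −0.15 (right), and the longer ones 0.10 and −0.006. The 2 panels share the sham LV libraries.

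Ndufa4l2 was the only member called higher in sham LV. It encodes a relative of Ndufa4 that is known to be induced by low oxygen. Its level was low, with 22.5, 17.9 and 20.5 FPKM for sham LV, 10.3, 9.94 and 14.5 FPKM for sham RV, 13.1, 16.5 and 11.9 FPKM for VO LV, and 14.5, 11.2 and 16.5 FPKM for VO RV. All 3 sham LV libraries were above the 9 others. The log2 fold change of sham LV against sham RV was 0.80 ± 0.18 (SE, adjusted p = 0.040, limma), and the exact two-sided permutation test of 3 against 3 libraries gave 0.10, the smallest p it allows. For VO LV against sham LV the log2 fold change was −0.54 (adjusted p = 0.11, limma), which did not pass. Cox4i2, the isoform of complex IV subunit 4 that is also known to be regulated by oxygen, was at 21.7, 16.5 and 21.9 FPKM for sham LV, at 12.8, 16.03 and 13.7 FPKM for sham RV, at 14.1, 13.8 and 13.2 FPKM for VO LV and at 10.8, 13.1 and 19.4 FPKM for VO RV. It was likewise highest in sham LV on average, with log2 fold changes of 0.48 against sham RV (adjusted p = 0.13) and −0.52 for VO LV against sham LV (adjusted p = 0.13, limma), neither of which passed. The endothelial sum and the smooth muscle and pericyte sum also separated the sham groups, as given above. The part of oxygen or of cell types in the levels of Ndufa4l2 and Cox4i2 was not tested.

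Compared with sham RV, Ndufaf1 and Ndufs1 were lower in sham LV, against the direction of most members. Both are among the longer members, with 1906 and 2474 bases, and the part of length in their differences was not tested. Ndufaf1 is an assembly factor that acts on an early membrane part of complex I, and Ndufs1 is the largest iron-sulphur subunit of its matrix arm, through which electrons enter from NADH. Ndufaf1 was at 6.38, 5.05 and 6.97 FPKM in the sham LV libraries and 10.2, 10.4 and 10.3 FPKM in those of sham RV, so the groups did not overlap. The log2 fold change was −0.71 ± 0.15 (SE, adjusted p = 0.036, limma, exact permutation p = 0.10). Ndufs1 was at 125, 99.0 and 145 FPKM in the sham LV libraries and at 194, 197 and 174 FPKM in those of sham RV, with a log2 fold change of −0.63 ± 0.17 (SE, adjusted p = 0.063, limma), which did not pass. Ndufaf1 was no longer called without any single one of sham LV 1, sham LV 2, sham RV 1, sham RV 2, sham RV 3, VO LV 1 or VO LV 2 (adjusted p = 0.054 to 0.13), and Ndufa4l2 without sham LV 1, sham LV 2, sham LV 3, sham RV 1, sham RV 2, VO LV 1 or VO LV 2 (adjusted p = 0.054 to 0.15).

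In the VO LV both genes stood at the sham RV level. Ndufaf1 was at 9.80, 10.6 and 11.9 FPKM in VO LV and at 9.19, 7.43 and 6.001 FPKM in VO RV. Its log2 fold change was 0.77 for VO LV against sham LV (adjusted p = 0.052, limma) and −0.44 for VO RV against sham RV (adjusted p = 0.55). Neither comparison passed the test on its own, although the libraries of the groups did not overlap. Ndufs1 was at 188, 183 and 242 FPKM in VO LV and at 163, 157 and 112 FPKM in the VO RV libraries, with log2 fold changes of 0.74 (adjusted p = 0.061) and −0.40 (adjusted p = 0.58, limma). The RV values rested in part on VO RV 3, without which they were −0.30 for Ndufaf1 and −0.23 for Ndufs1. Both genes thus were high in sham RV and VO LV and low in sham LV and VO RV.

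The difference between the LV and the RV response to VO passed the test for these 2 members. It was 1.21 ± 0.21 for Ndufaf1 (log2, SE, adjusted p = 0.025, limma) and 1.14 ± 0.25 for Ndufs1 (adjusted p = 0.035, limma), a ratio of the 2 fold changes of 2.32 and 2.20. Of all genes tested 4.19% were called in this comparison, so 2 of 97 members is below the share over all genes. This comparison contains the difference between the sham groups, so the calls of Ndufaf1 in both are not independent. Both genes were called with the length trend removed. Ndufaf1 remained called without sham LV 3, sham RV 3, VO LV 1 or any VO RV library, and not without sham LV 1 (adjusted p = 0.061), sham LV 2 (0.060), sham RV 1 (0.0744), sham RV 2 (0.065), VO LV 2 (0.056) or VO LV 3 (0.083). Ndufs1 remained called without sham LV 3, sham RV 3, VO RV 1 or VO RV 2 and not without any other single library (adjusted p = 0.056 to 0.0999). Over all genes tested, the calls in this comparison went from 583 to 0 without sham LV 1, and the log2 differences with 1 library left out were 1.07 to 1.36 for Ndufaf1 and 0.97 to 1.27 for Ndufs1.

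**Figure D4:**
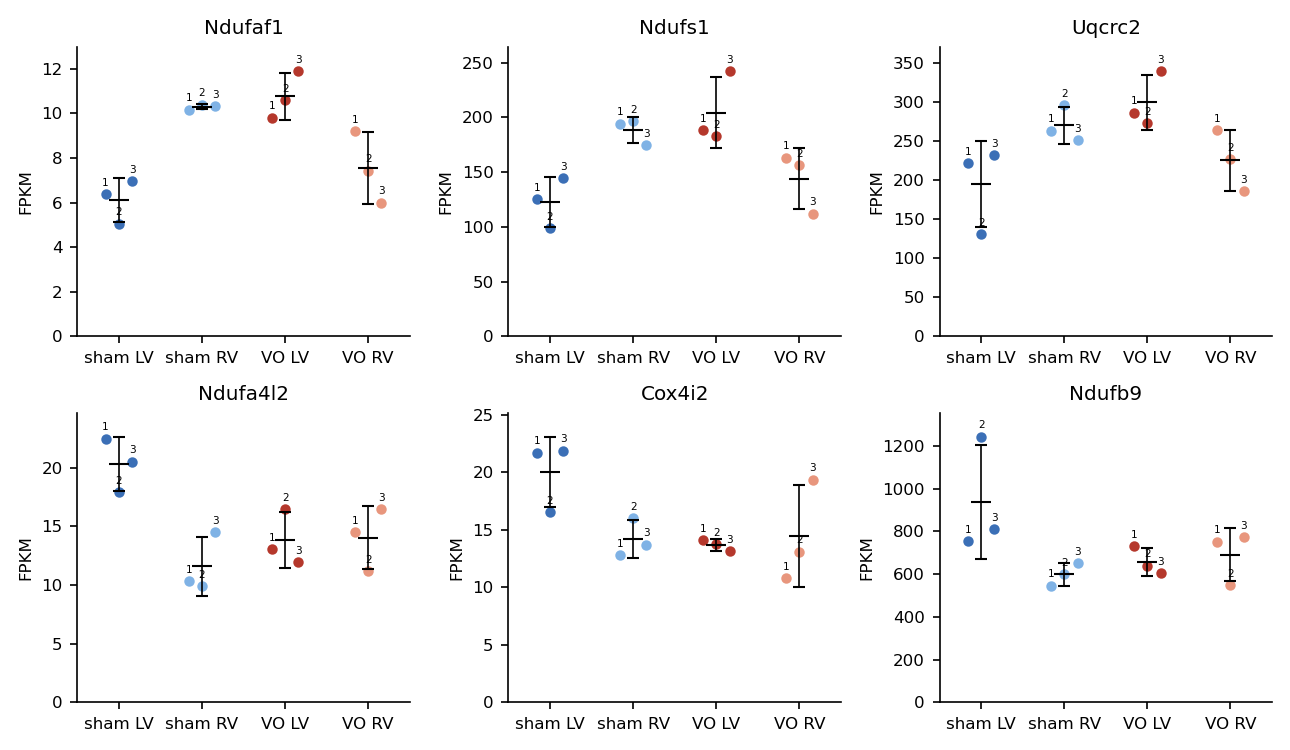
FPKM of 6 nuclear-encoded members in each library (points, numbered by replicate) of the 4 groups, with mean and SD (bars, n = 3). Ndufaf1, Ndufs1 and Uqcrc2 were higher in sham RV and VO LV than in sham LV and VO RV on average, whereas Ndufa4l2, Cox4i2 and Ndufb9 were highest in sham LV.

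The sequences before the start of the 3 called members are shown because these genes differ in direction from each other although all were chosen by the complex I stem. Of the 88 nuclear members, 82 were matched to a RefSeq gene and 69 had a promoter in the table used (RefSeq, GRCr8, 250 bases before to 50 after each start). The last 150 bases before the start are printed 5′ to 3′ on the strand of the gene, which is chr3:127104021-127104170 (minus strand) for Ndufaf1, chr9:72073606-72073755 (minus strand) for Ndufs1 and chr7:65242019-65242168 (plus strand) for Ndufa4l2. Capitals mark matches, on either strand, to 4 short motifs, namely the NRF1 core GCGCATGC, the ETS core CCGGAAG, the YY1 core AAGATGGC and the SP1 core GGGCGG, of which none contains another.
Ndufaf1: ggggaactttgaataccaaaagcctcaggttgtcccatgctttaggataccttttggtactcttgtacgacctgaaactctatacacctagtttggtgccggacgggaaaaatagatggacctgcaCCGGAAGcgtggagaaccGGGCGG
Ndufs1: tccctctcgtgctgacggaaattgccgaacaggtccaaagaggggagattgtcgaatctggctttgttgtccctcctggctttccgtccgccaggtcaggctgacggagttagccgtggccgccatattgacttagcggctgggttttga
Ndufa4l2: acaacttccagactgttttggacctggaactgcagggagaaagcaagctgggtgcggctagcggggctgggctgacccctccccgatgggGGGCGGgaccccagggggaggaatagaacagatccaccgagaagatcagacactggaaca

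Within the printed stretches Ndufaf1 held an ETS core 24 bases and an SP1 core 6 bases before its start, Ndufa4l2 an SP1 core 60 bases before its start, and Ndufs1 none of the 4. Outside them, Ndufaf1 had an SP1 core 221 bases before and an ETS core 18 bases after its start, Ndufs1 an ETS core 199 bases before, and Ndufa4l2 a YY1 core that began at the last printed base and ran on past the start, which is not in capitals. In the 300-base windows of the 69 members, the NRF1 core was present in 14.5%, beside 2.66% of all 27457 promoters of that length. The ETS core was present in 26.1% (all promoters 9.22%), the YY1 core in 18.8% (3.44%) and the SP1 core in 42.0% (34.9%). These motifs are bound by factors known for nuclear respiratory genes, and a match of letters is no evidence of binding. Members with and without a motif had similar medians for sham LV against sham RV, for example 0.17 for the 9 tested members with the NRF1 core and 0.24 for the 57 without, and 0.32 for the 18 with the ETS core and 0.23 for the 48 without.

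In the VO LV no member was called against sham LV, where 0.0935% of all genes tested were. With an unadjusted p under 0.05 and a fold change over 1.3, 5 nuclear genes were higher in VO LV, beside 9.27% of all genes, and 7 were lower, beside 6.44%. These counts moved to 4 and 11 with scaling to reads outside the mitochondrial genome, to 7 and 3 with quantile normalization, to 5 and 2 with the length trend removed, and to 4 and 16 without sham LV 2, sham RV 1 and VO RV 2 together. Without sham LV 1 alone they were 4 and 12, and without VO LV 2 alone 7 and 2. The share of all genes by this rule is not given for these alternative fits. The 5 were Ndufaf1, Ndufs1, Ndufaf6, Ndufa10 and Uqcrc2, and the 7 were the Ndufa13 copy on chromosome 7, Ndufa4l2, Ndufa5, Ndufb7, Ndufb9, Cox4i2 and Atp5h. In voom on recovered reads, Ndufaf1 and Ndufs1 were called, beside 1.42% of all genes tested. The median log2 fold change of the 84 genes was −0.11 (26 positive), beside −0.02 for all genes, and −0.01 with the length trend removed. Marker sums of other cell types also separated VO LV from sham LV without overlap. These were 5 endothelial markers (277 to 316 FPKM against 363 to 391), 7 fibroblast markers (2023 to 2498 against 2546 to 2736), 7 macrophage markers (38.0 to 41.0 against 42.2 to 46.6) and 4 skeletal muscle markers (3693 to 4370 against 2390 to 3656). The skeletal muscle sum was mostly Acta1 and Ckm. Tnnt3 of that list went the other way, with 2.10, 4.46 and 2.46 FPKM in VO LV against 5.22, 5.94 and 4.25 FPKM in sham LV. That sum therefore cannot be read as more skeletal muscle. The part of these markers in the differences of the members, Ndufaf1 and Ndufs1 included, was not tested. The nuclear accessory subunits of complex I had a median of −0.25 over 27 genes and its 7 nuclear core subunits −0.02, and these were −0.13 and 0.05 with the length trend removed. This comparison and that of the 2 sham groups share the sham LV libraries, so their opposite signs are not independent of each other.

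Some of these genes do different things in the chain. Uqcrc2, a core subunit of complex III, was at 222, 131 and 232 FPKM for sham LV, 263, 297 and 252 FPKM for sham RV, 287, 274 and 339 FPKM for VO LV, and 264, 227 and 186 FPKM for VO RV. The log2 fold change of VO LV against sham LV was 0.66 (adjusted p = 0.099, limma), and sham LV 2 held the lowest value of all libraries. Without it the value was 0.40, and that of sham LV against sham RV was −0.25. Ndufaf6, an assembly factor of complex I, was at 10.54, 9.996 and 9.92 FPKM in sham LV and 18.8, 12.6 and 20.1 FPKM in VO LV, with a log2 fold change of 0.70 (adjusted p = 0.089, limma). Of the ATP synthase subunits, Atp5a1 and the catalytic Atp5b had log2 fold changes of 0.34 (adjusted p = 0.11) and 0.18 (adjusted p = 0.43, limma). None of these passed the test.

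In the VO RV no member was called against sham RV, in a comparison where 0% of all genes tested were called by limma and none by voom. With an unadjusted p under 0.05 and a fold change over 1.3 no member was higher, beside 1.85% of all genes, and 2 were lower, Ndufaf1 and Ndufs1, beside 3.06%. Without VO RV 2 alone, 5 members were higher and 2 lower, and the share of all genes by this rule is not given for that fit. The median of the 84 nuclear genes was 0.006 (44 positive), beside 0.003 for all genes, and it was 0.17 without VO RV 2 and −0.07 without VO RV 1. The nuclear sum of VO RV 2 (28983 FPKM) was the lowest of all 12 libraries, against 41299 and 39854 FPKM in the other VO RV libraries.

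Between VO LV and VO RV no member was called, where 0.00719% of all genes tested were called by limma. In all, 2 nuclear genes were higher in VO LV with an unadjusted p under 0.05 and a fold change over 1.3, again Ndufaf1 (log2 fold change 0.50, adjusted p = 0.29) and Ndufs1 (0.51, adjusted p = 0.33), beside 3.85% of all genes. None was lower, beside 3.56%. Without VO RV 2, 2 members were higher and 1 lower by this rule. Of the 84 nuclear genes 70 had a positive log2 fold change, with a median of 0.10 beside 0.005 for all genes. This direction rested on VO RV 2, without which the median was −0.05. The sum of 7 macrophage markers was 38.0 to 41.03 FPKM in VO LV and 41.1 to 68.2 FPKM in VO RV. That of 4 skeletal muscle markers, mostly Acta1 and Ckm and with Tnnt3 going the other way, was 3693 to 4370 FPKM and 2184 to 3043 FPKM. The other marker sums overlapped between these groups, and the part of markers in the differences of the members was not tested.

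In the difference of the 2 responses, 5 nuclear genes were higher with an unadjusted p under 0.05 and a fold change over 1.3 (Ndufaf1, Ndufs1, Uqcrc2, Ndufa10 and Atp5a1), beside 13.1% of all genes, and 6 were lower (Ndufa4l2, Ndufb9, Atp5i, Atp5h, Ndufs5 and Ndufaf3), beside 9.94%. The balance turned with the scaling, with 8 higher and 3 lower after quantile normalization, 7 and 3 with the length trend removed, 5 and 14 with scaling to reads outside the mitochondrial genome, and 6 and 12 in voom on recovered reads. Positive values mean that the log2 fold change with VO was higher in the LV than in the RV, whatever the size of either. The median of the 84 genes was −0.14 beside −0.04 for all genes, and −0.005 with the length trend removed. It was −0.23 for the 51 nuclear genes under 1000 bases and 0.07 for the 33 longer ones. Protein-coding genes outside the list had −0.23 and −0.01 in the same order. Without VO RV 2 the median of the 84 genes was −0.33, and 22 members rather than 6 were lower by the same rule. In that fit the calls over all genes rose from 583 to 909. The share of all genes by the unadjusted rule is not given for these alternative fits. The mitochondrial-encoded genes had a median of −0.11, and the 13 log2 values lay between −0.47 (Mt-nd6) and 0.16 (Mt-cytb), with standard errors of 0.30 to 0.58.

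**Figure D5:**
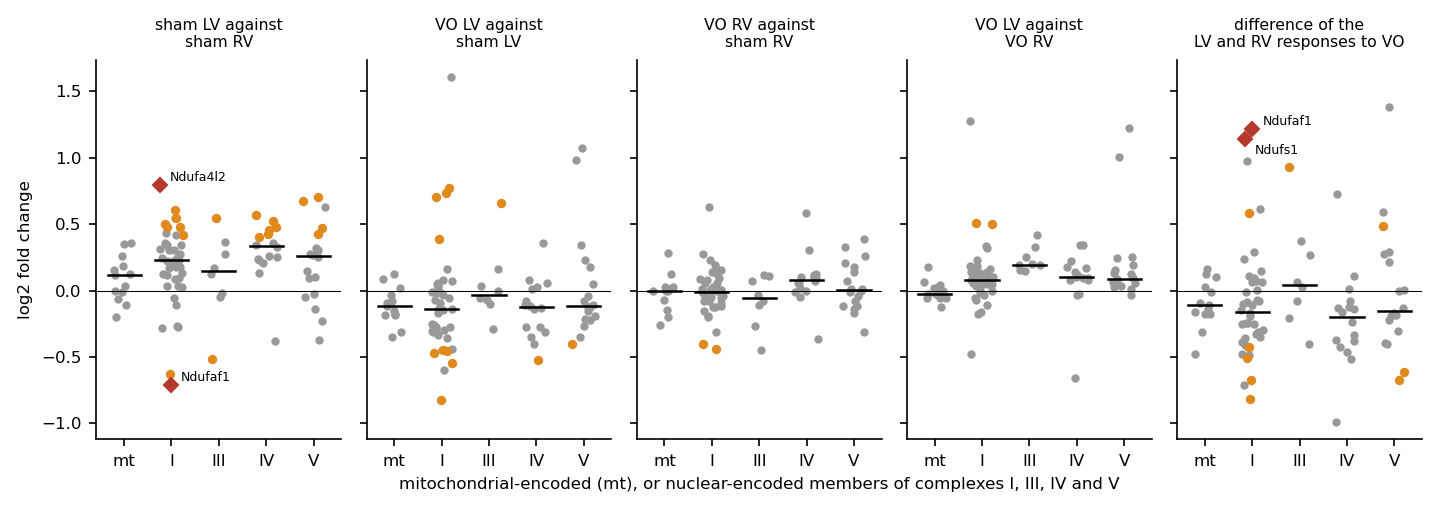
Log2 fold change of the 97 tested members in the 5 comparisons (panels), for the mitochondrial-encoded genes (mt) and the nuclear-encoded genes of complexes I, III, IV and V, spread sideways for visibility, with the median of each set as a line. Called members (red diamonds) are Ndufa4l2 and Ndufaf1 in the sham comparison and Ndufaf1 and Ndufs1 in the difference of the responses, orange points have an unadjusted p under 0.05 and a fold change over 1.3, and no mitochondrial-encoded gene is coloured.

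The isoforms that distinguish heart muscle from other tissues did not pass the test in any comparison. Cox6a2 and Cox8b are the heart and muscle isoforms of complex IV subunits whose general forms are Cox6a1 and Cox8a. The ratio of Cox6a2 to Cox6a1 was 3.23, 1.72 and 2.64 for sham LV, 2.07, 2.87 and 2.40 for sham RV, 2.36, 2.22 and 2.61 for VO LV, and 2.41, 2.63 and 3.07 for VO RV. The ratio of Cox8b to Cox8a was 1.95, 0.897 and 2.08 for sham LV, 1.61, 2.03 and 1.59 for sham RV, 1.78, 1.58 and 1.74 for VO LV, and 1.62, 1.62 and 2.08 for VO RV. The muscle isoform thus exceeded the general one in every library except for Cox8b in sham LV 2, which held the lowest value of both ratios. Cox6b2, the testis-type isoform of subunit 6B, was at a mean of 3.35 FPKM.

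Other genes of the pathway were counted from lists written with earlier results of these data known. Of 4 subunits of complex II, Sdha, its catalytic flavoprotein, was called in the difference of the responses (0.90 ± 0.20, SE, adjusted p = 0.037, limma), in the same direction as Ndufaf1 and Ndufs1. Of 23 tested assembly factors of complexes III to V, Coa5 (1.304 ± 0.28, adjusted p = 0.033) and Atpaf1 (0.78 ± 0.18, adjusted p = 0.041) were called there, and of 9 further assembly factors of complex I, Acad9 was (0.63 ± 0.15, adjusted p = 0.041, limma). These are 1 of 4, 2 of 23 and 1 of 9 genes, beside 4.19% of all genes tested. None of these 3 lists had a gene called between the sham groups. Of 13 genes for cytochrome c and coenzyme Q synthesis, 11 for copying and transcription of mitochondrial DNA and 17 for processing, stability and decay of mitochondrial RNA, none was called by limma in any comparison. With an unadjusted p under 0.05 and a fold change over 1.3, the difference of the responses held 1, 1 and 3 of them, beside 13.1% of all genes higher and 9.94% lower.

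Of 13 tested regulators of nuclear respiratory genes, 3 were called between the sham groups, beside 3.85% of all genes tested, and 4 in the difference of the responses, beside 4.19%. Ppara, Ppargc1a and Ppargc1b, a nuclear receptor and coactivators that drive genes of oxidative metabolism, were lower in sham LV when compared with sham RV, with log2 fold changes of −0.97, −0.78 and −0.81 (adjusted p = 0.033, 0.050 and 0.032, limma). In the difference of the responses these 3 and Esrrb were called, with 1.54, 1.31, 1.34 and 2.64 (adjusted p = 0.025, 0.033, 0.025 and 0.032, limma). This difference contains that between the sham groups, so the calls of the 3 genes in both comparisons are not independent. Such calls were often lost with 1 library left out. Over all genes tested, those between the sham groups went from 536 to 0 without sham RV 1, to 1 without sham LV 2 and to 3 or 0 with the replicate blocks, and those in the difference of the responses from 583 to 0 without sham LV 1, sham LV 2, sham RV 1, VO LV 2 or VO LV 3. The median over the 13 was −0.29 for sham LV against sham RV and 0.52 for the difference of the responses, while the 84 nuclear members had medians of 0.24 and −0.14.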

How the data were processed

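RNA of free wall myocardium was extracted with Trizol per the labels and with a PureLink kit per the study's methods, and the NEBNext Ultra kit was used for the libraries. The study's methods describe selection of mRNA with poly-T beads, and whether this step affected mitochondrial messengers was not tested. The authors aligned reads with HISAT2 2.0.5 and counted them with featureCounts 1.5.0-p3, and the deposited values are FPKM made by the authors from these counts, with the genome build, annotation and strand setting not given in the sources used here. DESeq2, the authors' tool, was not run. Whole reads were recovered for 100% of values under 200 reads (tolerance 0.02).

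After scaling by a median-ratio size factor, log2(FPKM + 0.5) was tested for the 13910 genes whose mean FPKM reached 0.5 in R 4.3.3 with limma 3.58.1 (trend) in 1 model of 4 groups. Fold changes on this scale understate the change of low genes. A DEG was a gene with a fold change over 1.3 and an adjusted p (Benjamini-Hochberg) under 0.05. The procedure was tested on simulated data. The members and lists, and the rule for the genes named, were chosen with earlier results of these data known. Named were all mitochondrial-encoded genes, isoform pairs (the listed names did not include one partner, which was not analysed here), the 2 nuclear genes of highest level per complex, called members, and the 3 largest rises and falls with an unadjusted p under 0.05. Genes named beyond this rule were chosen after their values were seen. Alternatives were other scalings, pseudocounts of 1 and 0.1, other filters, separate fits, the replicate block, removal of the gene-length trend, voom on recovered reads and libraries left out. Promoters are from RefSeq (GRCr8).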

Additional observations from a re-analysis of the deposited data

Results flagged for a closer look

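The responses of the LV and of the RV to VO differed by more than the spread between libraries for 2 members, an assembly factor and a subunit of complex I. The difference was 1.21 on the log2 scale for Ndufaf1, from a log2 fold change of 0.77 in the LV and −0.44 in the RV, and every VO LV library was above every sham LV library while every VO RV library was below every sham RV library. For Ndufs1 it was 1.14, from 0.74 in the LV and −0.40 in the RV, again without overlap in either ventricle. The adjusted p of the difference was 0.025 and 0.035 (limma), and each response on its own did not pass the test. Of all genes tested 4.19% were called in this comparison, above the share of 2 among 97 members. The call was lost for Ndufaf1 in 6 and for Ndufs1 in 8 of the 12 fits that left out 1 library, and for both with either replicate block, while the log2 difference in the 12 fits was 1.07 to 1.36 for Ndufaf1 and 0.97 to 1.27 for Ndufs1.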

How the results depend on the processing

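For sham LV against sham RV 2 members were called, and 6 with scaling to reads outside the mitochondrial genome, 4 with a mean FPKM of at least 1, 5 among protein-coding genes only, 1 in separate fits, and 0 with no filter on low values, with 3 libraries left out together (sham LV 2, sham RV 1 and VO RV 2, chosen after seeing the data) or with either replicate block. Leaving out 1 library gave 0 to 9 calls, with 9 without VO RV 2. The calls over all genes moved as well, from 536 to 606, 597, 676, 314 and 8 in the first 5 of these, to 2 with 3 libraries left out, to 3 and 0 with the replicate blocks, and to 720 without VO RV 2. For VO LV against sham LV none was called, and 1 with a mean FPKM of at least 1, 2 among protein-coding genes only and 2 in voom (0 to 2 with 1 library left out), while over all genes 13 were called, and 183, 262 and 198 in the same order. For the difference of the responses 2 were called, and 0 with no filter, with 3 libraries left out together or with either replicate block (0 to 6 with 1 library left out, 6 without VO RV 2), while over all genes 583 were called, and 21, 1, 1 and 0 in the same order and 909 without VO RV 2. The replicate numbers showed no pairing of the libraries by this measure (2 of 18 same-number pairs had r over 0.1, and 0 of 12 libraries were closest to their own number). Most of these pairs join sham with VO libraries, which cannot share an animal. Between LV and RV of 1 treatment, r was −0.22 to 0.12. With 3 libraries per group this cannot decide whether LV and RV libraries came from the same animals. With 3 libraries left out together the mitochondrial median was −0.49 for VO LV against sham LV and −0.57 for the difference of the responses. With 1 library left out it was −0.08 to 0.45 for sham LV against sham RV, −0.49 to 0.086 for VO LV against sham LV, −0.17 to 0.23 for VO RV against sham RV, −0.23 to 0.16 for VO LV against VO RV and −0.45 to 0.09 for the difference. The nuclear median was 0.19 to 0.32, −0.16 to −0.06, −0.074 to 0.17, −0.05 to 0.19 and −0.33 to −0.074 in the same order. No result changed direction among named members with an unadjusted p under 0.05. The causes were not tested. Depth was similar in all libraries, and 3 libraries per group limit what can be called.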
